A study of Mus musculus with 7 samples.

Results

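The genes described here are the interferon response genes of mouse cardiomyocytes, the contractile cells of the heart: 34 genes that interferon is known to induce, or that carry its signal to the nucleus, chosen by symbol. The count table held 33 of them among 23337 genes. Ifi27 had no row of that name, and RefSeq ties the name to both Ifi27l1 and Ifi27l2a, so it was not analysed here. The groups were cardiomyocytes taken at postnatal day 30 (P30, 3 libraries) and at postnatal day 6 (P6, 4 libraries). All mice had the genotype label Rosa-Tom/Cas9, and which allele or alleles each library carried is not given. On day 1 every animal was injected with AAV9-cTNT-Cre, a viral vector in which the cardiac troponin T promoter drives Cre recombinase. Age and time since the virus therefore rose together and cannot be told apart. Cells were freed with collagenase and sorted by fluorescence, and SMART-Seq cDNA was sequenced. The treatment label names another collection day, while titles, ages and the series text give the ages used here, and whether each library was a different mouse is not stated, so the p-values reflect library-to-library spread that may be only technical.

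Interferons are secreted proteins that warn cells of infection. Type I interferons bind a receptor made of IFNAR1 and IFNAR2, whose kinases JAK1 and TYK2 activate STAT2 and related factors. With IRF9, STAT2 is part of a complex that binds the interferon-stimulated response element in promoters, while interferon gamma acts through the receptor chains IFNGR1 and IFNGR2 and leads to binding at the gamma-activated site. The induced genes include sensors of viral RNA, effectors that block viral growth and the transcription factors themselves, and many are transcribed at a low basal level without infection.

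Total counts ran from 15555469 to 19368717 in the P30 libraries and from 10594932 to 51427646 in the P6 libraries. At these depths 3 counts were worth 0.167 to 0.210 CPM (the usual count scaled to library size, here with TMM factors) at P30 and 0.0553 to 0.271 CPM at P6. Library P30c stood below P30a and P30b for most interferon response genes, and transcripts of other heart cells were present in the sorted cells. The 12 endothelial markers summed to 531, 748 and 385 CPM in P30a to P30c, against 118, 207, 209 and 154 CPM in P6a to P6d. The 14 macrophage and leukocyte markers summed to 21.4, 76.3 and 28.4 CPM at P30, against 5.43, 7.26, 4.22 and 8.02 CPM at P6. No member of either list was at 0 in every library. The 10 cardiomyocyte markers summed to 102760 to 106305 CPM at P30 and to 71750 to 84566 CPM at P6, and of these the alpha-myosin gene Myh6 had 54701 to 58678 CPM at P30 and 26977 to 40316 CPM at P6. By the test given below, 4 of the 10 were higher at P30, 0 lower and 6 did not pass, beside 26.3% higher and 27.8% lower over all genes tested. Their median log2 fold change (P30 over P6) was -0.02, so most of them did not share the rise of the sum.

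Most interferon response genes were higher at P30. Of 29 members that passed the filter on low counts, 23 were higher and none lower, by edgeR's quasi-likelihood test at a Benjamini-Hochberg adjusted p under 0.05 over all 12561 genes tested. Over all genes tested 26.3% were higher and 27.8% lower, 54.1% in either direction. By unadjusted p under 0.05, 25 members were higher and 1 lower, beside 3654 and 3856 of all 12561 genes tested. By DESeq2 26 of 33 members were higher and 0 lower, beside 18.4% of 19954 genes higher. The median log2 fold change (P30 over P6) of the tested members was 2.08, beside -0.02 for all genes tested. In 19 of the 29 every P30 library lay above every P6 library, which was so for 27.8% of all genes tested. Trim25, Ifit2, Eif2ak2, Dtx3l, Parp9 and Usp18 did not pass.

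The filter asked for at least 3 libraries at or above 0.613 CPM. Of the 29 members that passed, 22 would have passed on their P6 libraries alone, and 16 of those were higher at P30. The other 7, Oas2, Ifi44, Oasl2, Ifit3, Gbp2, Xaf1 and Dhx58, passed only through the P30 libraries, and all 7 were called. The filter thus favoured a difference in them. The 4 highest fold changes of the tested members, those of Oas2, Ifi44, Oasl2 and Ifit3, are all among these 7. All 7 are also among the 19 members in which every P30 library lay above every P6 library. The median of 2.08 includes them as well. Of the 22, Rsad2, Parp14 and Ifit1 had the highest. Of the 4 that did not pass, Mx1 and Zbp1 were below 1 CPM in every library, and Isg15 and Oas1a were above it in P30a and P30b. With no filter 27 of the 33 members were higher and 0 lower, beside 19.2% of 19954 genes higher. How many of all genes would pass on their P6 libraries alone and be higher was not computed. The 26.3% of all genes tested is therefore no like share for the 16 of 22, nor for the same counts of the lists below.

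**Figure D1:**
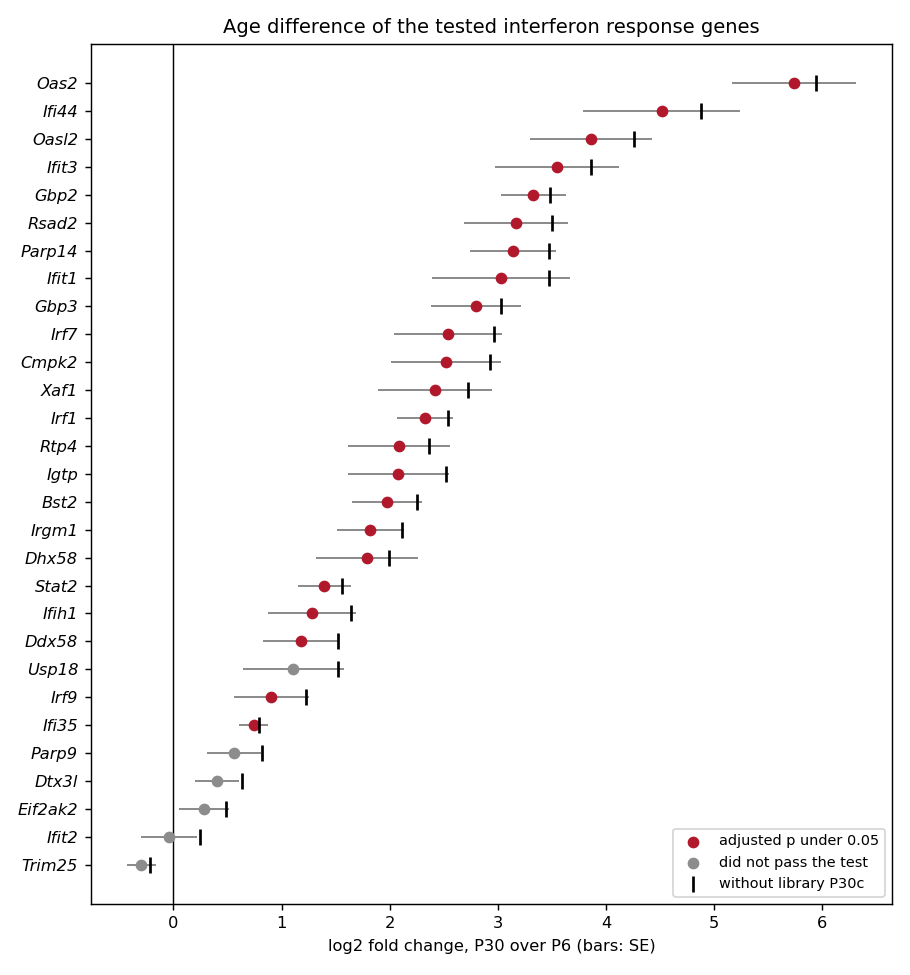
Log2 fold change (P30 over P6) with its SE for the 29 members that passed the filter, by edgeR; red points passed the test, grey points did not, and black ticks give the value without library P30c. Oas2 is highest at 5.74 and Trim25 lowest at -0.30, and each tick lies to the right of its point.

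The promoters of many members carry the letters that interferon-activated factors recognise, and those of 7 members are shown because they display the element in its different forms. RefSeq promoter windows (250 bases before to 50 after the transcription start, GRCm38.p6) were found for 25 of the 33 members. The interferon-stimulated response element was searched on both strands as GAAANNGAAA, and the gamma-activated site as TTCNNNGAA, which reads the same on both strands; neighbouring matches may overlap. The first was present in the windows of 14 of 25 members, or in 14 of 29 windows (48.3%), against 3.44% of all 32851 windows. The second was present in 7 of 25 members, or in 24.1% of their windows, against 8.30% of all windows. The 250 bases before the start are given 5′ to 3′ on the gene's own strand, with both kinds of match in capitals.
Ifit3 (chr19:34583279-34583528, plus strand): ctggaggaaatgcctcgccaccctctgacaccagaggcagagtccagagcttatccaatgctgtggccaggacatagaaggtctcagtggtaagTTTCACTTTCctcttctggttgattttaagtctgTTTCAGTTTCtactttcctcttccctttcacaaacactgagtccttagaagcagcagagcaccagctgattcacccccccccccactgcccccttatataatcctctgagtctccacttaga
Isg15 (chr4:156200819-156201068, minus strand): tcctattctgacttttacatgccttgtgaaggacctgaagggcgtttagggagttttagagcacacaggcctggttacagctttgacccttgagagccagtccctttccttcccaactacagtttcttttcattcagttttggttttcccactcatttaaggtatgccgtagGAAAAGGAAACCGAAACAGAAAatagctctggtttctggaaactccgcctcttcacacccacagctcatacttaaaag
Rsad2 (chr12:26456453-26456702, minus strand): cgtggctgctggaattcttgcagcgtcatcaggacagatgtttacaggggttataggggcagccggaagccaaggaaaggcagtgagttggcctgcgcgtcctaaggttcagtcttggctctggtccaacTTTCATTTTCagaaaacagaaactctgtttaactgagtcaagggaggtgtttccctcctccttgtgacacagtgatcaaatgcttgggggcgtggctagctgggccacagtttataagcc
Gbp2 (chr3:142620413-142620662, plus strand): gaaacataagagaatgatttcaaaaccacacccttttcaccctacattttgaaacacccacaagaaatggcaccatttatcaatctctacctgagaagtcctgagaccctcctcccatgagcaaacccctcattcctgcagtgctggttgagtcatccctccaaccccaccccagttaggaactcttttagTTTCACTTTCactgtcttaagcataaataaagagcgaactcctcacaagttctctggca
Igtp (chr11:58199306-58199555, plus strand): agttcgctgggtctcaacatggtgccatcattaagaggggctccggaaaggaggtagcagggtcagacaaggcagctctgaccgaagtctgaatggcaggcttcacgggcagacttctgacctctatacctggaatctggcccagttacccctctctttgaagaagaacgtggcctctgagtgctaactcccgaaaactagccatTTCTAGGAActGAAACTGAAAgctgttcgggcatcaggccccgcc
Stat2 (chr10:128270248-128270497, plus strand): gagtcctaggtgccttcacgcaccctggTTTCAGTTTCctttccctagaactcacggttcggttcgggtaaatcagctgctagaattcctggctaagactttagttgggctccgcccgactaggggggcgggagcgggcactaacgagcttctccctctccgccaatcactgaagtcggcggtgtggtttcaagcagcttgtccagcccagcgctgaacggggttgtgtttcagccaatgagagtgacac
Irf1 (chr11:53769764-53770013, plus strand): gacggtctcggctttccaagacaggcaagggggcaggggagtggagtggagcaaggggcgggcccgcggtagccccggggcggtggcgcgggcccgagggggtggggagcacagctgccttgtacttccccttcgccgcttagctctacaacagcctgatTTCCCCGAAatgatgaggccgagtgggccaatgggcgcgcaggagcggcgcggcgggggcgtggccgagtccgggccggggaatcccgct
In Ifit3 both capital runs are response elements read on the reverse strand, their first bases 156 and 122 bases before the start. In Isg15 a single capital run holds 3 overlapping response elements. The run in Rsad2, Gbp2 and Stat2 is 1 response element each, 120, 59 and 222 bases before the start. Igtp holds a gamma-activated site followed by a response element. Irf1 holds a gamma-activated site and no response element in this window.

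Members with and without the letters stood on both sides of the test. Of 19 members with a window that were higher at P30, 11 held the response element (57.9%), and of 6 that were not called or not tested, 3 did. Those 3 were Eif2ak2, and Isg15 and Oas1a, which were not tested. Isg15 and Oas1a were called higher at P30 with no filter, so the 6 are not a group without an age difference. Eif2ak2, which did not pass the test, had the element 19 bases after its start. Ifi44 and Oasl2, with the highest fold changes of the tested members that have a window, had no match to either motif, nor did Irf7, Irf9, Xaf1, Cmpk2, Dtx3l and Trim25. Oas1a, which was not tested and whose log2 fold change without the filter was 4.67, held both motifs. A match is a run of letters and not a measured binding site.

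**Figure D2:**
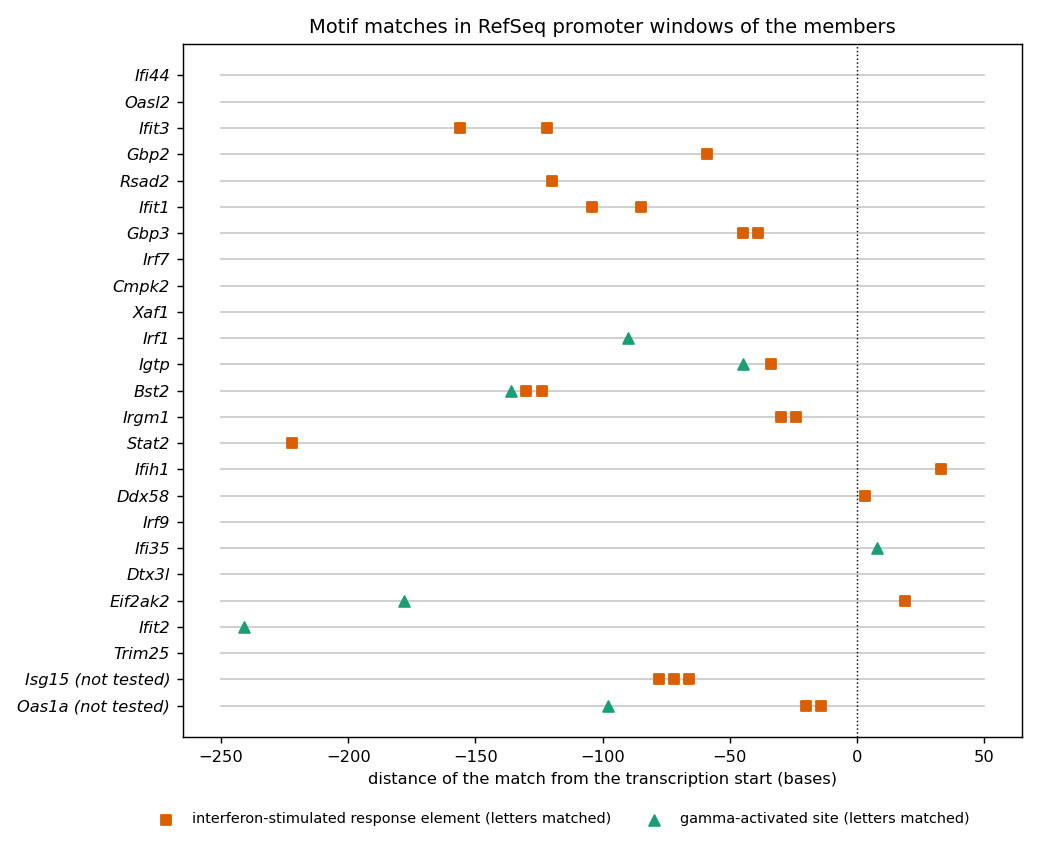
Positions of motif matches in the RefSeq windows of 25 members, in bases from the transcription start (dotted line). Members are ordered by log2 fold change (P30 over P6) from the highest at the top, and Isg15 and Oas1a, not tested, are last. Squares are response element letters and triangles gamma-activated site letters. Members with and without squares occur at both ends of the order.

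All 4 transcription factors of the group rose. IRF7 amplifies the production of type I interferon. Irf7 had 13.7, 28.4 and 4.77 CPM in P30a to P30c, against 2.08, 2.76, 2.21 and 3.88 CPM in P6a to P6d. Every P30 library lay above every P6 library, and the log2 fold change was 2.54 ± 0.50 (SE, edgeR adjusted p = 0.00195), or 1.78 without P30b. IRF1, a factor induced by interferon gamma, had a smaller error. Irf1 had 14.1, 17.3 and 9.19 CPM in P30a to P30c, against 2.17, 2.20, 3.02 and 3.38 CPM in P6a to P6d. Its lowest P30 library was well above its highest P6 library, with a log2 fold change of 2.33 ± 0.26 (SE, edgeR adjusted p = 7.05e-05).

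STAT2 and IRF9 are parts of the complex that binds the response element. Stat2 had 13.2, 23.3 and 12.5 CPM in P30a to P30c, against 4.98, 7.56, 5.68 and 6.42 CPM in P6a to P6d. Its groups did not overlap, and the log2 fold change was 1.40 ± 0.24 (SE, edgeR adjusted p = 0.00103). Irf9 had 24.1, 30.6 and 10.7 CPM in P30a to P30c, against 7.69, 8.96, 14.5 and 15.3 CPM in P6a to P6d. Here P30c lay among the P6 libraries, the log2 fold change was 0.91 ± 0.34 (SE, edgeR adjusted p = 0.0485), and the call was lost with library totals as the scaling or without any of P6a, P6b, P30a and P30b (adjusted p up to 0.212). Irf9 shares 123 exonic bases with Rnf31 on the same strand and Irf7 shares 45 with Phrf1 on the other, and since the kit does not mark strand, reads in those stretches cannot be assigned to either gene.

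Of the 6 genes grouped as sensors of nucleic acid, 3 rose, 2 did not pass the test and 1 was below the filter. Trim25, which acts on a sensor and is not one itself, is among the 6. The RIG-I-like receptors detect viral RNA in the cytoplasm: Ddx58 encodes RIG-I, Ifih1 encodes MDA5, and Dhx58 encodes LGP2, which modulates both. Ddx58 had 14.7, 14.9 and 5.33 CPM in P30a to P30c, against 3.35, 4.76, 6.36 and 5.91 CPM in P6a to P6d. P30c lay within the P6 range, the log2 fold change was 1.18 ± 0.35 (SE, edgeR adjusted p = 0.0165), and without P30a or P30b the call was lost (adjusted p up to 0.0752). Ifih1 had 4.74, 6.72 and 1.89 CPM in P30a to P30c, against 1.36, 2.43, 1.55 and 1.94 CPM in P6a to P6d. Again only P30c overlapped the P6 libraries, and the log2 fold change was 1.28 ± 0.40 (SE, edgeR adjusted p = 0.0225); without any of P6a, P6c, P30a and P30b the call was lost (adjusted p up to 0.125). Dhx58 had 1.51, 2.46 and 1.12 CPM in P30a to P30c, against 0.633, 0.300, 0.369 and 0.844 CPM in P6a to P6d. Its groups did not overlap at these low levels, and the log2 fold change was 1.79 ± 0.47 (SE, edgeR adjusted p = 0.00953), a call lost without P30b (adjusted p = 0.059).

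Eif2ak2 encodes PKR, a kinase that halts translation when it binds double-stranded RNA. It had 11.3, 12.0 and 7.09 CPM in P30a to P30c, against 6.06, 10.3, 8.77 and 7.77 CPM in P6a to P6d. P30a and P30b lay above all P6 libraries and P30c among them, and the log2 fold change of 0.28 ± 0.23 (SE, edgeR adjusted p = 0.324) did not pass the test. Trim25, a ubiquitin ligase that acts on RIG-I, had 21.5, 25.8 and 19.6 CPM in P30a to P30c, against 25.1, 25.6, 29.1 and 29.8 CPM in P6a to P6d. The groups overlapped through P30b alone and the point estimate was below 0, with a log2 fold change of -0.30 ± 0.13 (SE, edgeR adjusted p = 0.0812). Trim25 was called lower with library totals (log2 fold change -0.47), with the length trend removed (-0.41) and without P30b (-0.41). Zbp1, which senses left-handed double-stranded nucleic acid, was listed with 5, 4 and 1 counts at P30 and with 0, 4, 0 and 0 counts at P6, at most 0.279 CPM.

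**Figure D3:**
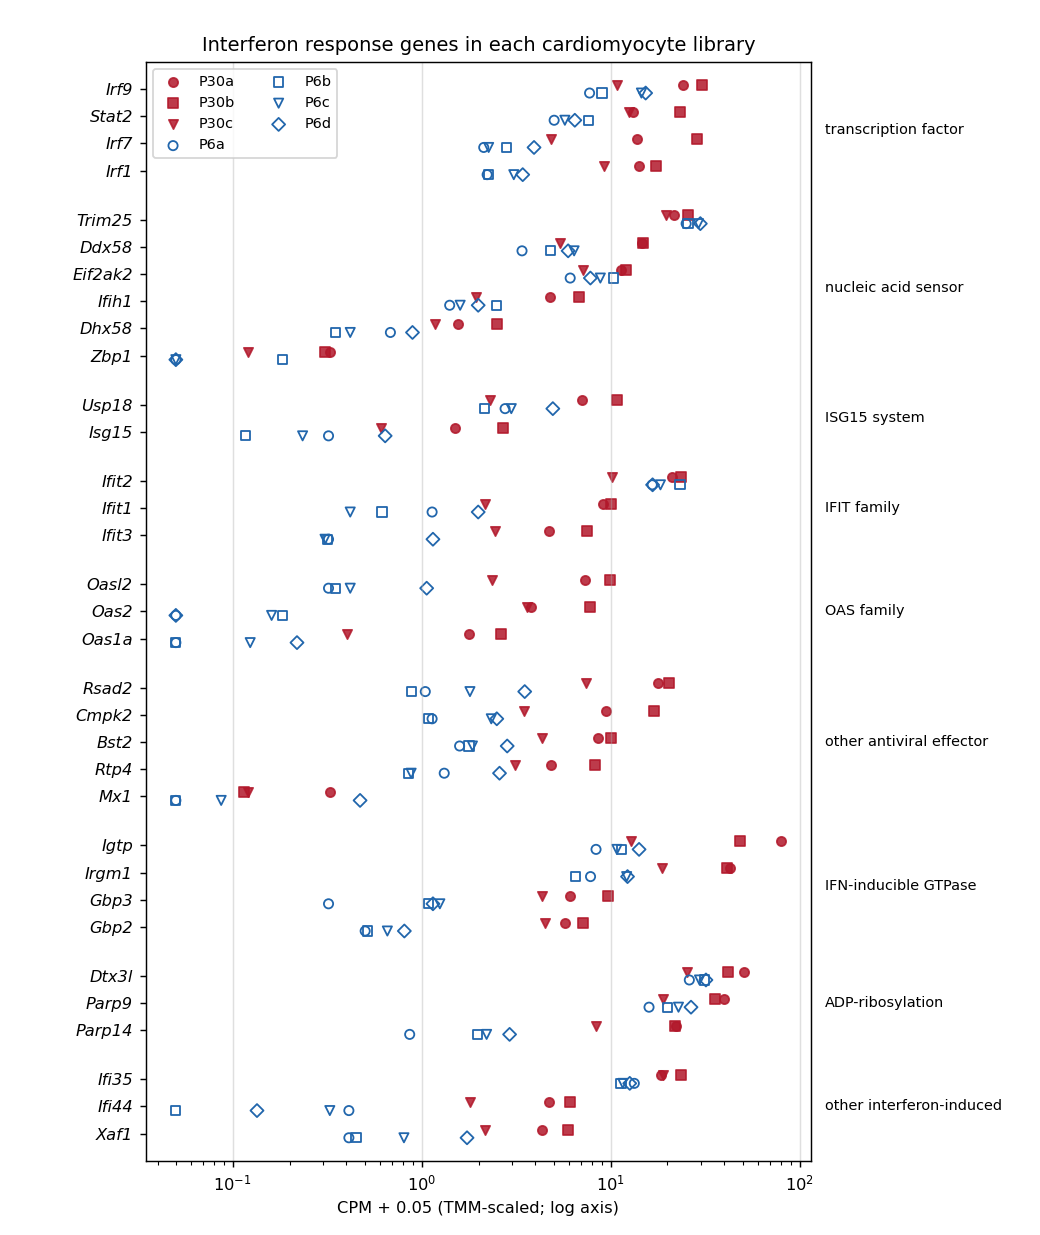
CPM plus 0.05 (log axis) of each of the 33 members in every library, grouped by role; filled red symbols are P30 libraries and open blue symbols P6 libraries. The downward red triangle (P30c) is the lowest red symbol of most members, and in Irf9, Ddx58, Usp18 and Igtp it lies within the range of the P6 libraries.

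ISG15 is a ubiquitin-like protein that is attached to other proteins during the interferon response, and USP18 removes it and also dampens signalling at the type I receptor. Isg15 was counted little. It had 26, 41 and 8 counts in P30a to P30c, against 3, 2, 10 and 7 counts in P6a to P6d, or 1.45, 2.65 and 0.561 CPM in P30a to P30c, against 0.271, 0.0666, 0.184 and 0.591 CPM in P6a to P6d. It did not pass the filter; without the filter its log2 fold change was 2.68 ± 0.67 (SE, edgeR adjusted p = 0.00347). Usp18 had 7.03, 10.7 and 2.24 CPM in P30a to P30c, against 2.71, 2.10, 2.93 and 4.90 CPM in P6a to P6d. P30a and P30b lay above all P6 libraries and P30c among them, and the log2 fold change of 1.11 ± 0.46 (SE, edgeR adjusted p = 0.0681) did not pass the test. Without P30c it was 1.52 and was called (adjusted p = 0.00563), and Usp18 was also called by DESeq2, with no filter, with the length trend removed and without P6d.

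The 3 IFIT genes, whose proteins bind foreign RNA and block its translation, differed among themselves. They lie near each other on the plus strand of chromosome 19 (GRCm38). Ifit2 is at 34550694 to 34576419, Ifit3 at 34583531 to 34588731 and Ifit1, 52.1 kb from Ifit3, at 34640871 to 34650009. Ifit1 had 9.09, 9.95 and 2.10 CPM in P30a to P30c, against 1.09, 0.566, 0.369 and 1.94 CPM in P6a to P6d. Ifit3 had 4.69, 7.43 and 2.39 CPM in P30a to P30c, against 0.271, 0.266, 0.258 and 1.10 CPM in P6a to P6d. For both genes every P30 library lay above every P6 library. Their log2 fold changes were 3.03 ± 0.64 (SE, edgeR adjusted p = 0.00297) for Ifit1 and 3.55 ± 0.58 (SE, edgeR adjusted p = 0.00067) for Ifit3, and that of Ifit3 was 4.16 without P6d. Ifit2, 7.1 kb from Ifit3, had 21.0, 23.5 and 10.2 CPM in P30a to P30c, against 16.6, 23.3, 18.3 and 16.6 CPM in P6a to P6d. P30a lay within the P6 range, P30b just above it and P30c below it; the log2 fold change was -0.04 ± 0.26 (SE, edgeR adjusted p = 0.901), and its sign turned without P6b or P30c. At P6 the level per length of Ifit2 was 4.90 CPM per kb, against 0.373 for Ifit1 and 0.271 for Ifit3; at P30 the values were 4.77, 2.65 and 2.77 CPM per kb. Ifit1 and Ifit3 have close copies in the mouse genome, so reads that fit more than 1 copy make their counts uncertain.

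OAS proteins make a short nucleotide signal that switches on RNase L, and Oasl2 is a relative of the family. Oas2 had 3.74, 7.76 and 3.58 CPM in P30a to P30c, against 0, 0.133, 0.111 and 0 CPM in P6a to P6d. It held 67, 120 and 51 counts at P30, against 0, 4, 6 and 0 counts at P6, and the log2 fold change was 5.74 ± 0.57 (SE, edgeR adjusted p = 3.89e-05). Because the P6 counts are so few, the size of that value depends on the prior count of the fit. Oasl2 had 7.31, 9.89 and 2.31 CPM in P30a to P30c, against 0.271, 0.300, 0.369 and 1.01 CPM in P6a to P6d. P6d was the highest of the P6 libraries and still below P30c, and the log2 fold change was 3.86 ± 0.57 (SE, edgeR adjusted p = 0.000378). Oas1a, with 31, 40 and 5 counts at P30 and 0, 0, 4 and 2 counts at P6, did not pass the filter; without the filter its log2 fold change was 4.67 ± 0.85 (SE, edgeR adjusted p = 0.000189). Its close copy Oas1g had at most 0.167 CPM in any library, and multi-mapping reads could have been split between them.

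Rsad2 and Cmpk2 are neighbours on chromosome 12, 12.8 kb apart and transcribed away from each other. Rsad2 encodes viperin, an enzyme that makes a chain-terminating nucleotide from the product of its neighbour, the nucleotide kinase Cmpk2. Rsad2 had 17.7, 20.4 and 7.37 CPM in P30a to P30c, against 0.995, 0.832, 1.75 and 3.46 CPM in P6a to P6d. Cmpk2 had 9.37, 17.0 and 3.44 CPM in P30a to P30c, against 1.09, 1.03, 2.29 and 2.45 CPM in P6a to P6d. For both genes the groups did not overlap. The log2 fold change of Rsad2 was 3.17 ± 0.48 (SE, edgeR adjusted p = 0.000447), and that of Cmpk2 was 2.52 ± 0.51 (SE, edgeR adjusted p = 0.00231), or 1.90 without P30b.

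Bst2 encodes tetherin, which holds budding viruses at the cell surface. It had 8.54, 10.0 and 4.28 CPM in P30a to P30c, against 1.54, 1.73, 1.81 and 2.79 CPM in P6a to P6d. Its P30 libraries lay above all P6 libraries, with a log2 fold change of 1.97 ± 0.33 (SE, edgeR adjusted p = 0.000737). Rtp4, a zinc-finger protein induced by interferon, had 4.80, 8.21 and 3.09 CPM in P30a to P30c, against 1.27, 0.799, 0.829 and 2.53 CPM in P6a to P6d. Its groups did not overlap either, although P30c stood close to P6d, and the log2 fold change was 2.08 ± 0.47 (SE, edgeR adjusted p = 0.00431). Mx1, a GTPase that restricts influenza virus and is defective in most laboratory strains, was listed with 5, 1 and 1 counts at P30 and with 0, 0, 2 and 5 counts at P6, at most 0.422 CPM.

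All 4 interferon-inducible GTPases rose; guanylate-binding proteins (Gbp2 and Gbp3) and immunity-related GTPases (Igtp and Irgm1) defend cells against pathogens that live in vacuoles. Igtp had 79.7, 48.3 and 12.8 CPM in P30a to P30c, against 8.32, 11.4, 10.7 and 14.1 CPM in P6a to P6d. The P30 libraries spanned a wide range, with P30c inside the P6 range. The log2 fold change was 2.08 ± 0.47 (SE, edgeR adjusted p = 0.0042), or 1.46 without P30a. Igtp shares 162 exonic bases on the same strand with its neighbour Irgm2, which had 91.4, 54.9 and 16.2 CPM in P30a to P30c, against 5.88, 10.1, 9.03 and 11.2 CPM in P6a to P6d, and reads could be split between them; the log2 fold change of Irgm2 was 2.58 ± 0.46 (SE, edgeR adjusted p = 0.00119), or 1.97 without P30a.

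Irgm1 had 42.6, 41.1 and 18.7 CPM in P30a to P30c, against 7.78, 6.49, 12.1 and 12.2 CPM in P6a to P6d. The groups did not overlap, and the log2 fold change was 1.82 ± 0.31 (SE, edgeR adjusted p = 0.000915). Gbp2 had 5.69, 7.11 and 4.42 CPM in P30a to P30c, against 0.452, 0.466, 0.608 and 0.760 CPM in P6a to P6d. Every P30 library stood far above the P6 libraries, and the log2 fold change was 3.33 ± 0.30 (SE, edgeR adjusted p = 2.16e-05). Gbp3, 47.4 kb from Gbp2 on chromosome 3, had 6.03, 9.69 and 4.28 CPM in P30a to P30c, against 0.271, 1.03, 1.20 and 1.10 CPM in P6a to P6d. Its groups did not overlap, with a log2 fold change of 2.80 ± 0.41 (SE, edgeR adjusted p = 0.000383).

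Among the 3 genes of ADP-ribosylation, 1 rose. PARP9 and DTX3L act as a complex, and Parp9 and Dtx3l overlap head to head on chromosome 16 with 458 shared exonic bases, so reads there cannot be assigned to either. Parp9 had 39.7, 35.5 and 18.9 CPM in P30a to P30c, against 15.9, 20.0, 22.8 and 26.6 CPM in P6a to P6d. Dtx3l had 50.5, 41.8 and 25.2 CPM in P30a to P30c, against 26.1, 31.3, 29.5 and 31.9 CPM in P6a to P6d. In both genes P30a and P30b lay above all P6 libraries and P30c did not. The log2 fold changes of 0.56 ± 0.25 (SE, edgeR adjusted p = 0.0822) for Parp9 and 0.40 ± 0.20 (SE, edgeR adjusted p = 0.122) for Dtx3l did not pass the test. Without P30c both were called, at 0.82 (adjusted p = 0.00652) and 0.64 (adjusted p = 0.00438). Parp14, an ADP-ribosyltransferase 55.0 kb from Dtx3l, had 22.1, 21.8 and 8.28 CPM in P30a to P30c, against 0.814, 1.93, 2.16 and 2.87 CPM in P6a to P6d. Its groups did not overlap, and the log2 fold change was 3.14 ± 0.40 (SE, edgeR adjusted p = 0.000162).

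The remaining members are induced by interferon with less settled roles. Ifi35 had 18.4, 23.5 and 18.9 CPM in P30a to P30c, against 13.3, 11.3, 11.6 and 12.6 CPM in P6a to P6d. It had the smallest fold change of the 23 members called, 0.74 ± 0.14 (SE, edgeR adjusted p = 0.00143) on the log2 scale, and its P30c library was not the lowest at P30. Ifi44 had 4.69, 6.08 and 1.75 CPM in P30a to P30c, against 0.362, 0, 0.276 and 0.0844 CPM in P6a to P6d. It was near 0 at P6, with 4, 0, 15 and 1 counts, and the log2 fold change was 4.51 ± 0.73 (SE, edgeR adjusted p = 0.000635), or 5.23 without P6c. Xaf1, which encodes an inhibitor of an apoptosis-blocking protein, had 4.30, 5.88 and 2.10 CPM in P30a to P30c, against 0.362, 0.400, 0.756 and 1.69 CPM in P6a to P6d. Its lowest P30 library lay above its highest P6 library, with a log2 fold change of 2.42 ± 0.53 (SE, edgeR adjusted p = 0.00376). A row named Ifi27l1, 1 of the names RefSeq ties to Ifi27, had 16.1, 20.4 and 7.65 CPM in P30a to P30c, against 5.43, 5.39, 9.88 and 12.5 CPM in P6a to P6d. The log2 fold change of Ifi27l1, 0.83 ± 0.37 (SE, edgeR adjusted p = 0.083), did not pass the test. The other such row, Ifi27l2a, did not pass the filter, with 8, 37 and 5 counts at P30, against 0, 10, 1 and 0 counts at P6. Its lowest P30 library, P30c at 0.351 CPM, was just above its highest P6 library, P6b at 0.333 CPM.

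Per length the order of the members by mean level changed with age. At P30 Igtp led with 23.2 CPM per kb of its longest coding transcript, followed by Irgm1 at 15.1, Ifi35 at 14.9 and Bst2 at 9.61 CPM per kb. At P6 Ifi35 led with 8.94 CPM per kb, followed by Parp9 at 6.01, Dtx3l at 5.59 and Igtp at 5.51 CPM per kb. The mean CPM of Igtp at P30 was 46.9 ± 33.5 (SD, n = 3) and that of Irgm1 34.1 ± 13.4 (SD, n = 3), so their order at P30 was within the spread between libraries. P30c alone had Ifi35 at 18.9 CPM, Irgm1 at 18.7 CPM and Igtp at 12.8 CPM. Ifi35 has the shortest transcript of these (1362 bases, against 2259 and 2022), so per length it was above both in P30c, as in the P6 means.

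Within an age the members ordered the libraries much alike. P30c was the lowest P30 library in 28 of the 29 tested members, against 35.4% of all genes tested, and Ifi35 was the exception. The ratio of P30c to the mean of P30a and P30b had a median of 0.446 over the tested members, with a range of 0.199 to 0.905, and a median of 0.999 over all genes tested. The same median was 0.593 over the 12 endothelial markers, 0.558 over the 11 tested macrophage and leukocyte markers, 0.587 over the 9 tested fibroblast markers and 1.06 over the 10 cardiomyocyte markers. At P6, P6d was the highest library in 20 of the 29 tested members, against 27.8% of all genes tested. Summed over all 33 members, the level was 489, 533 and 230 CPM in P30a to P30c, against 153, 180, 193 and 217 CPM in P6a to P6d. Without P30c, 28 of 31 tested members were higher and 0 lower, and without P30b 19 of 30 were higher and 1 lower. Of all genes tested, 23.5% were higher without P30c and 21.9% without P30b.

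Most endothelial and leukocyte markers and some pericyte markers rose too. For comparison with the counts below, 26.3% of all genes tested were higher at P30 and 27.8% lower. Of 12 endothelial markers 10 were higher at P30 and 0 lower, and of 11 macrophage and leukocyte markers 11 and 0. Of 8 smooth muscle and pericyte markers 4 were higher and 0 lower, and of 9 fibroblast markers 0 and 1. All 12 endothelial markers passed the filter on their P6 libraries alone. Of the leukocyte markers 1 did, Lyz2, and the other 10 passed only through the P30 libraries, so the filter favoured a difference in them. In the same order, the unadjusted p was under 0.05 for 10 and 0, 11 and 0, 4 and 0, and 1 and 2 of these, and DESeq2 called 11 and 0, 10 and 0, 4 and 0, and 0 and 1. Over all genes the counts were 3654 and 3856 of 12561 by unadjusted p, and 3663 and 3439 of 19954 by DESeq2. Lymphocyte markers were near the detection limit, summing to at most 1.05 CPM, with Cd3d, Cd3g and Nkg7 at 0 in every library. In bulk libraries a change in the number of cells of a type and a change in their RNA per cell cannot be told apart. Endothelial cells and leukocytes express interferon response genes as well, and the part of these cells in the values above was not tested. Immediate early and dissociation-associated genes were also higher at P30, 13 of 18, with 1 lower, and their sum was 2983, 4763 and 3089 CPM at P30, against 1145, 1168, 646 and 674 CPM at P6; their part was not tested either.

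**Figure D4:**
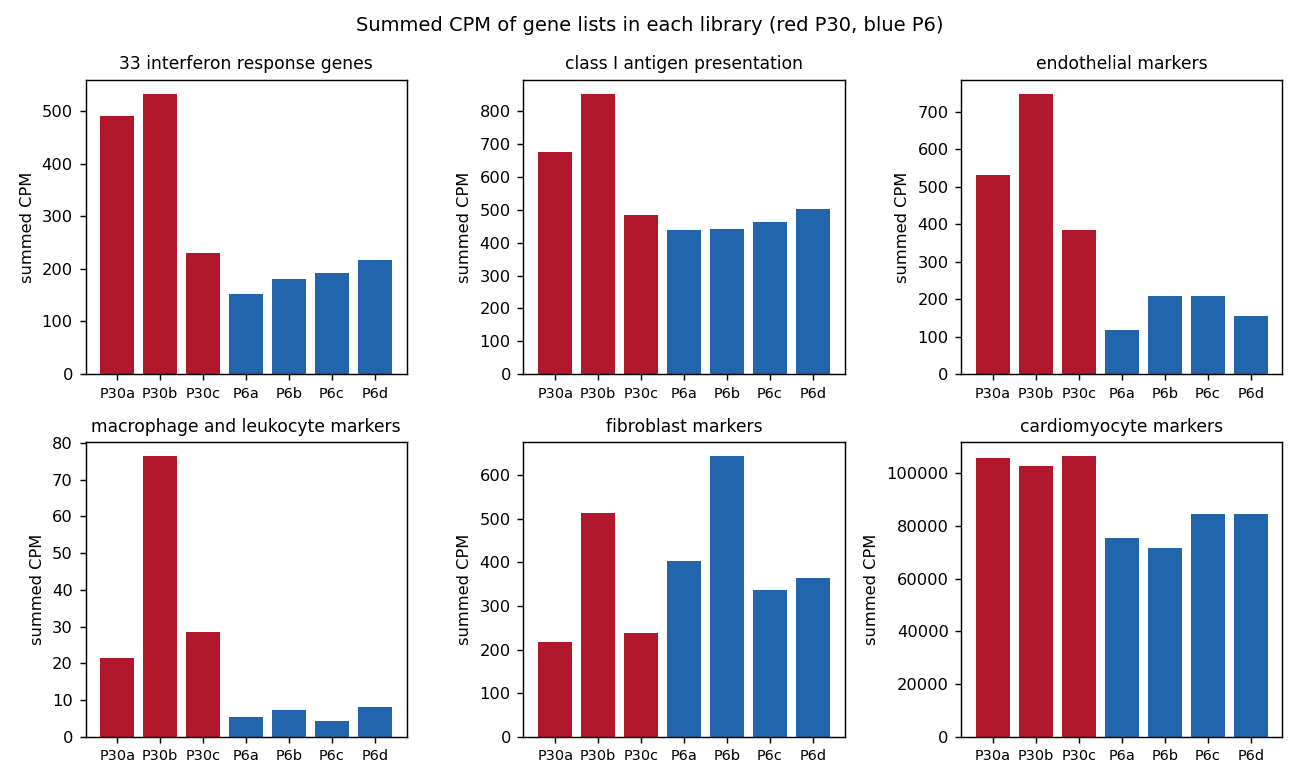
Summed CPM in each library (linear axes from 0) of the 33 members, of class I antigen presentation genes and of 4 lists of cell type markers; red bars are P30 and blue bars P6. The members sum to 230 CPM in P30c, close to the 217 CPM of P6d, while the endothelial sum of 385 CPM in P30c stays above the 209 CPM of P6c.

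Transcripts of interferons themselves were almost absent. Of 17 interferon genes with a row, 14 had no count in any library, which allows up to 3 counts, or 0.0553 to 0.271 CPM, in a library. Ifnb1, the interferon made first on viral sensing, had 0.391 CPM in P30a, 0 in P30b and 0.0702 in P30c, and 0 in all P6 libraries. Ifng had a count only in P6c, at 0.0922 CPM. None of the 17 passed the filter. Without the filter Ifnb1 was called higher (edgeR adjusted p = 0.0393) on 7, 0 and 1 counts in P30a to P30c, against 0 counts in each P6 library, and DESeq2 called none.

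The genes that carry the interferon signal moved in both directions. Of 16 genes of receptors, kinases and signal transducers, 9 were higher (56.2%) and 3 lower (18.8%) at P30, with a median log2 fold change of 0.41. Over all genes tested 26.3% were higher and 27.8% lower, so the lower share of this list was below that of all genes. Ifnar2 had a log2 fold change of 0.59 ± 0.12 (SE, edgeR adjusted p = 0.0024), while that of its partner chain Ifnar1 was -0.30 ± 0.10 (SE, edgeR adjusted p = 0.0258), a call lost without any 1 of the P30 libraries or with no filter (adjusted p up to 0.0734). The interferon gamma receptor chains rose, Ifngr1 by 0.63 ± 0.11 and Ifngr2 by 0.37 ± 0.10 on the log2 scale, the second call being lost with library totals or without P30b (adjusted p up to 0.188). Jak1 had 269, 264 and 222 CPM in P30a to P30c, against 169, 172, 160.2 and 156 CPM in P6a to P6d, with a log2 fold change of 0.62 ± 0.09 (SE, edgeR adjusted p = 0.000404). Tyk2 did not pass the test, with a log2 fold change of -0.04 ± 0.23 (SE, edgeR adjusted p = 0.893) whose sign turned without P6b or P30c. Ptpn2, a phosphatase that dampens the pathway, fell by 0.69 ± 0.14 on the log2 scale. With library totals 6 genes of this list were higher and 5 lower.

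Of 14 tested genes of nucleic acid sensing 7 were higher and 0 lower, beside 26.3% higher and 27.8% lower over all genes tested. By unadjusted p under 0.05 the counts were 8 and 1, and by DESeq2 8 and 0. Over all genes they were 3654 and 3856 of 12561 by unadjusted p, and 3663 and 3439 of 19954 by DESeq2. Of the 14, 12 passed the filter on their P6 libraries alone, and 5 of the 12 were higher and 0 lower. Traf6, a ubiquitin ligase of several sensing pathways named after its values were seen, was called lower with library totals, with the length trend removed, without P6d and without P30a (log2 fold change -0.41 to -0.52). Mavs, the mitochondrial adaptor of the RIG-I-like receptors, had 244, 217 and 232 CPM in P30a to P30c, against 53.8, 54.6, 62.7 and 58.7 CPM in P6a to P6d. Its groups were far apart and P30c stood with the other P30 libraries; the log2 fold change was 2.01 ± 0.09 (SE, edgeR adjusted p = 6.29e-07). Nlrx1, a mitochondrial regulator of that adaptor, rose by 0.71 ± 0.16 on the log2 scale. Of 6 other interferon regulatory factors and their binding proteins 0 were higher and 1 lower (16.7%), below the 27.8% of all genes tested. By unadjusted p the counts were 0 and 2, and by DESeq2 0 and 1. Irf2bp2, a corepressor, fell by 0.93 ± 0.26 on the log2 scale, a call lost without P30b (edgeR adjusted p = 0.0514). Irf3, the factor that first switches on interferon genes, had a log2 fold change of 0.06 ± 0.18 and was chosen after its value was seen.

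Of 46 tested interferon-induced genes outside the 34, 32 were higher and 3 lower, with a median log2 fold change of 1.68, beside 26.3% higher and 27.8% lower over all genes tested. Of these 46, 34 passed the filter on their P6 libraries alone, and 21 of the 34 were higher and 3 lower. Lap3, a leucine aminopeptidase, had 103, 106 and 98.3 CPM in P30a to P30c, against 76.0, 76.5, 79.1 and 80.8 CPM in P6a to P6d. Iigp1, an immunity-related GTPase, had 119, 75.6 and 55.5 CPM in P30a to P30c, against 18.7, 15.5, 11.0 and 17.7 CPM in P6a to P6d. In both the groups did not overlap, with log2 fold changes of 0.39 ± 0.08 (SE, edgeR adjusted p = 0.00215) for Lap3 and 2.43 ± 0.26 (SE, edgeR adjusted p = 6.08e-05) for Iigp1. In the other direction Ifitm2, of a family that blocks viral entry, fell by 0.81 ± 0.19 and Slfn9 fell by 1.97 ± 0.55 on the log2 scale; the call of Ifitm2 was lost with the length trend removed (adjusted p = 0.276). Of 15 class I antigen presentation genes, 10 were higher and 1 lower. Of these 15, 13 passed the filter on their P6 libraries alone, and 8 of the 13 were higher and 1 lower. H2-D1, a class I heavy chain, had 86.1, 142 and 50.2 CPM in P30a to P30c, against 13.0, 18.6, 20.6 and 19.8 CPM in P6a to P6d, with a log2 fold change of 2.36 ± 0.30 (SE, edgeR adjusted p = 0.000166). B2m, the shared light chain, had a log2 fold change of 0.99 ± 0.36 (SE, edgeR adjusted p = 0.0417), a call lost under 7 of 13 alternatives (adjusted p up to 0.215). Psme2, a proteasome activator subunit, fell by 0.49 ± 0.14, and the call was lost with the length trend removed (adjusted p = 0.49).

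**Figure D5:**
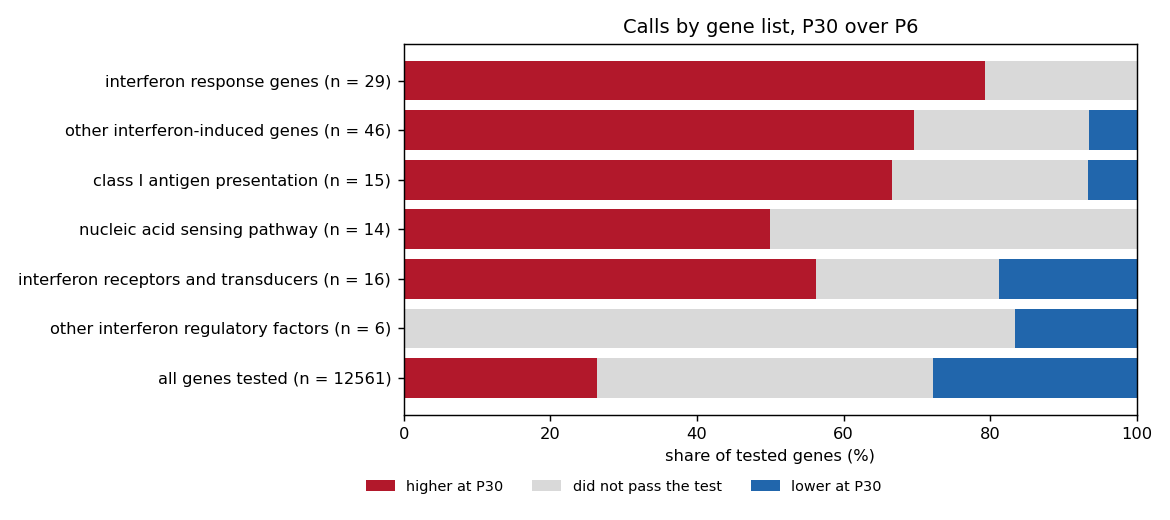
Share (%) of the tested genes of each list that were higher (red), did not pass the test (grey) or were lower (blue) at P30 against P6, by edgeR. The red share is 79.3% for the interferon response genes, against 26.3% for all genes tested. The list of other interferon regulatory factors has no red share. Of the interferon response genes counted as higher, 7 passed the filter only through their P30 libraries.

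In the authors' deposited table, a DESeq2 comparison of the same ages, 26 of the 33 members were higher at P30 and 0 lower at an adjusted p under 0.05. The sign of the fold change there was that of mean CPM at P30 minus P6 for all 33 members. The deposited comparison rests on the same counts and the same kind of test as the DESeq2 fit above, so it is not separate evidence. In the DESeq2 fit above, 18.4% of 19954 genes were higher.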

How the data were processed

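Per the labels' protocols, RNA of sorted cardiomyocytes was made into SMART-Seq v4 cDNA and Nextera XT libraries, a kit that does not mark strand. Per the submitters' processing notes, CASAVA 1.8, STAR 2.5.3a, featureCounts of Subread 1.5.2 and the mouse build mm10 were used; the annotation and the handling of multi-mapping reads were not given in the sources used here. The authors deposited raw counts per gene, 1 column a library, named P30a to P30c and P6a to P6d. The authors' deposited DESeq2 table holds a mean normalised count (baseMean, a signal averaged over all libraries), a log2 fold change with its error, a Wald statistic (a score) and p-values; its baseMean matched that computed here from the counts within a relative 1e-06 in 19954 of 19954 genes with a count.

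Counts were filtered with filterByExpr, scaled by TMM and tested by edgeR 4.0.16 (R 4.3.3) quasi-likelihood with age as the only term, with Benjamini-Hochberg adjustment over 12561 genes. The SE is the log2 fold change divided by the square root of its F statistic. Levels per kb use the longest coding transcript of GENCODE M21 (GRCm38). DESeq2 1.42.0, 5 other scalings, filters or corrections, and each library left out in turn were the alternatives. Floors of 3 counts cover counting error only. Replicate libraries differed by more than sampling noise in every pair. All members are named, and of other lists the 2 most counted genes past the threshold in each direction, the receptors and kinases, and close copies of members; 1 gene that this rule names is not reported here. The members, lists and markers were chosen with earlier results of these data known.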

Additional observations from a re-analysis of the deposited data

Results flagged for a closer look

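In 4 members a single P6 library stood far from the other 3, by a gap over the range above Dixon's critical value of 0.829 for 4 samples. Ifit3 was at 1.10 CPM in P6d, with a gap of 0.984 of the range, and Oasl2 was at 1.01 CPM in P6d, with a gap of 0.869. Mx1 was at 0.422 CPM in P6d, from 5 counts, with a gap of 0.913. Zbp1 was at 0.133 CPM in P6b, from 4 counts, the other P6 libraries being at 0. Its gap of 1 follows from the zeros and would be the same at any level in P6b. Chance flags about 1 in 20 groups of normally spread values, a rate that does not hold for such low counts, and 33 members were looked at. The members share their libraries, and P6d was the highest P6 library in 20 of 29 tested members, so they are not independent looks.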

How the results depend on the processing

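The number of members higher at P30 was 23, and over all alternatives it stayed between 19 and 28. Over the same alternatives 18.4% to 27.9% of all genes tested were higher. The number lower was 0, and became 1, Trim25, with library totals and 1 with the length trend removed; over the fits without 1 library each it was 0 to 1. The log2 fold change of Ifit2 ran from -0.26 to 0.24 and that of Tyk2 from -0.19 to 0.21 over the fits without 1 library each; the cause was not tested. Library totals moved the all-gene median log2 fold change to -0.20, beside -0.02 with TMM, and gave 2408 genes higher and 4658 lower, beside 3307 and 3490. No filter gave 3831 and 3465, with an all-gene median of 0.22. Library totals also gave 6 higher and 5 lower receptor, kinase and transducer genes beside 9 and 3, 1 lower sensing gene beside 0, 3 lower interferon regulatory factors beside 1, and 3 lower class I genes beside 1. No paired analysis was possible because the columns carry letters that no label ties to a replicate number. Depth limits Mx1, Zbp1, Isg15, Oas1a and the interferon genes, which had few counts or none.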
